A study of Mus musculus with 16 samples.

Results

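The CpGs described here lie on mouse chromosome 18 outside the clustered protocadherin genes, in cultured fibroblast lines of which some had lost about one chromosome's worth of coverage there. A CpG was a member when it had at least 10 reads in all 16 libraries and lay on chromosome 18 of the mm10 build outside the stretch that holds those genes. There were 25230 such CpGs among 1319716 autosomal CpGs with the same depth, and another 3405 lay in the stretch that was left out, from chr18:36930000 to 37998105. The nearest members on its sides were at 36872328 and 38001573. The question was which methylation level the remaining copy of the chromosome showed at CpGs that were at intermediate levels in lines with both copies.

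In mammalian cells most CpG methylation is copied to the new strand at each cell division, so a level can be passed on in a growing line. A CpG at an intermediate level in a clonal line can carry methylation on one chromosome copy and not on the other, or can differ from cell to cell on the same copy. Bulk bisulfite reads from 2 copies do not separate these cases at a single CpG, whereas a line with a single copy has only one chromosome to read. Imprinted genes are a known case of the first kind, because their differentially methylated regions keep the mark set in the egg or the sperm.

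DNA methylation was measured by targeted capture bisulfite sequencing in immortalised mouse embryonic fibroblasts. The cells came from a pair of C57BL/6J embryos at day 13.5, male for MEF-1 and female for MEF-2, and were immortalised by serial passaging. Each parental culture was a bulk population sequenced once, and 7 clonal lines were grown from single sorted cells of each. A line is therefore 1 clone, and the lines of a family share 1 embryo. Total calls per library lay between 59243669 in MEF-1 line 1 and 90633091 in the MEF-2 parental culture.

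Coverage chose the groups and is given as a description. Relative coverage of chromosome 18, scaled to the median autosome of the library and to the median MEF-2 line, was 0.514, 0.519 and 0.529 in MEF-1 lines 1, 4 and 5. In MEF-1 lines 2, 3, 6 and 7 it was 0.945, 0.912, 0.952 and 1.00, and in the 7 MEF-2 lines it lay between 0.991 and 1.00. Lines 1, 4 and 5 are called single-copy lines below and lines 2, 3, 6 and 7 are called 2-copy lines, names that rest on coverage alone. In bins of 2 Mb along the chromosome the single-copy lines stayed between 0.457 and 0.619 and the 2-copy lines between 0.872 and 1.09, so no bin of one group reached the other. The MEF-1 parental culture stood between the groups at 0.717. The median number of reads at a member CpG was 18 to 21 in single-copy lines, 34 to 45 in 2-copy lines and 36 to 48 in MEF-2 lines.

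The rule set a floor on depth, and the CpGs just inside and just outside it had similar levels. The 2799 CpGs whose shallowest library had 10 reads had a mean level of 43.7% in single-copy and 43.2% in 2-copy lines, and the 3118 CpGs whose shallowest library had 9 reads had 44.1% and 43.5%. Lines 1, 4 and 5 were also closer to each other than the remaining MEF-1 lines on other chromosomes. This was measured on the 16 autosomes that the study kept, at CpGs with a pooled level between 20 and 80% in the pair. The coverage of each of these autosomes is not given here. The variance of level differences was 3.06 to 3.35 times that of read sampling between pairs of lines 1, 4 and 5. Between pairs of lines 2, 3, 6 and 7 it was 5.09 to 8.95 times. Copy number and this closeness cannot be told apart by the grouping of lines, and p-values over these lines may be too small. The main results are therefore set beside the same measure in the same lines on other autosomes.

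The mean level of chromosome 18 was nearly equal in the groups, whereas the spread of levels between CpGs was not. It was 50.2, 49.9 and 50.2% in single-copy lines 1, 4 and 5 and 49.7, 49.6, 49.4 and 50.1% in 2-copy lines 2, 3, 6 and 7, and these ranges overlapped. The difference of the group means was 0.364 points, below the 0.407 to 0.925 points of the same difference on each of the 16 kept autosomes, and it was 0.0236 points with at least 20 reads per CpG. Levels from 10 up to 90% were found at 16.7, 18.1 and 16.9% of member CpGs in the single-copy lines and at 26.0, 26.6, 26.9 and 27.5% in the 2-copy lines. The groups did not overlap on chromosome 18, and on the kept autosomes the single-copy lines had the larger share, 26.7 to 27.2% against 24.9 to 26.4%. Fewer CpGs of intermediate level on chromosome 18 thus went with an almost unchanged mean.

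Half-methylated CpGs were taken as those with a mean level of 40 to 60% over the 2-copy lines, where a 2-copy line was scored only on CpGs chosen from the other 3. This gave sets of 2727 to 2874 CpGs. Read discordance, the percentage of read pairs at a CpG in which one read is methylated and the other is not, has the same expected value at any depth and would be 50 for a random mixture of equal parts. It was 15.8, 17.0 and 16.5% in single-copy lines 1, 4 and 5 (mean 16.4 ± 0.632, SD, n = 3). In 2-copy lines 2, 3, 6 and 7 it was 44.4, 45.1, 41.97 and 45.2% (mean 44.2 ± 1.50, SD, n = 4). The groups did not overlap, and the difference of -27.7 points was far larger than either SD. With the half-methylated CpGs chosen in the MEF-2 lines instead, the difference was -12.9 points.

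**Figure D1:**
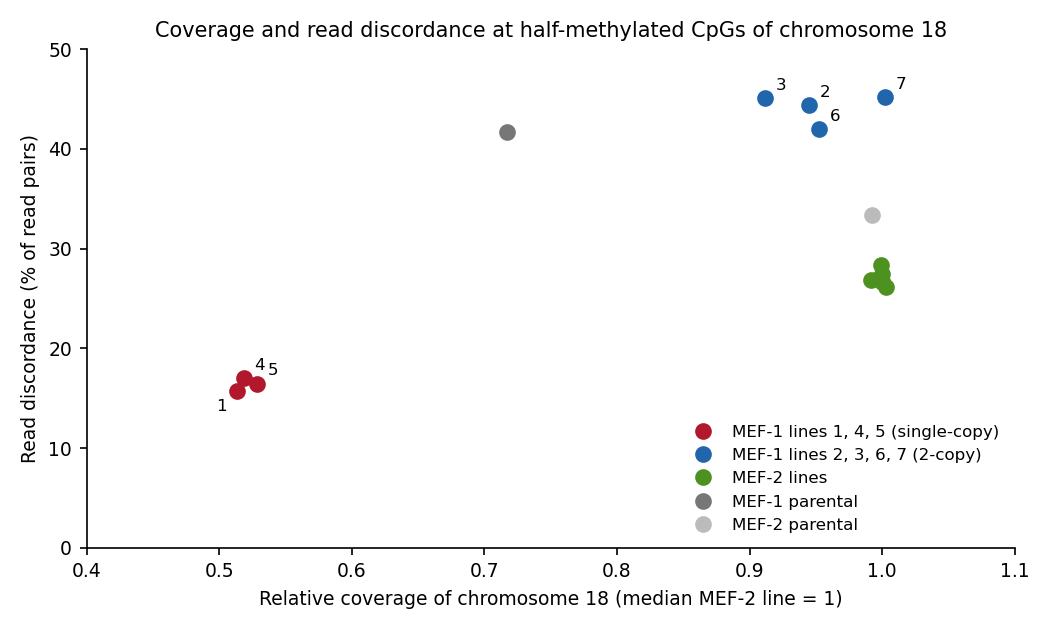
Each point is a library, placed by its relative coverage of chromosome 18 (x axis, median MEF-2 line = 1) and by its read discordance at CpGs half-methylated in the 2-copy lines (y axis, % of read pairs), with MEF-1 lines numbered. Lines 1, 4 and 5 sit at 0.514 to 0.529 and 15.8 to 17.0%, apart from every other library.

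The same measure on the other autosomes did not separate the groups in this way. On the 16 kept autosomes the difference in discordance lay between -1.91 points on chromosome 17 and 0.122 points on chromosome 14. Chromosome 12, which was at lowered coverage in all 7 MEF-1 lines (0.524 to 0.546), had a difference of 1.97 points, with 29.7% in lines 1, 4 and 5. The MEF-1 parental culture had a discordance of 41.7% at the chromosome 18 set. MEF-2 lines had 26.2 to 28.3%, but the CpGs were chosen in MEF-1 lines and were not held to 40 to 60% in MEF-2.

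**Figure D2:**
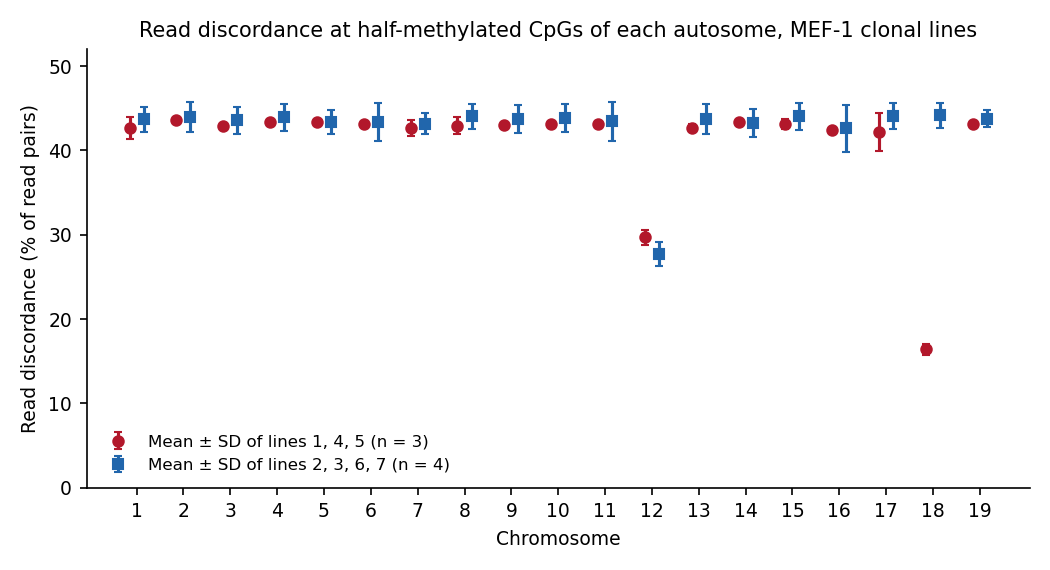
Read discordance (y axis, % of read pairs) at half-methylated CpGs of each autosome (x axis), as mean ± SD over MEF-1 lines 1, 4, 5 (n = 3, circles) and lines 2, 3, 6, 7 (n = 4, squares). On chromosome 18 the circles are at 16.4% and the squares at 44.2%, while on the 16 kept autosomes the means differ by at most 1.91 points.

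The remaining copy showed both a low and a high level, at different CpGs. Low levels, under 10%, were found at 29.7, 28.1 and 28.4% of half-methylated CpGs in single-copy lines 1, 4 and 5, against 2.95, 2.90, 5.95 and 1.71% in 2-copy lines 2, 3, 6 and 7. High levels, of 90% or more, were found at 36.7, 34.8 and 36.8% against 5.19, 3.45, 8.00 and 4.59%. The 2 extremes together thus held 64.8% ± 1.78 (SD, n = 3) of the CpGs in single-copy lines and 8.69% ± 3.61 (SD, n = 4) in 2-copy lines. That difference of 56.2 points compared with -1.84 to 0.569 points on the kept autosomes, and it was 26.3 points at CpGs chosen in the MEF-2 lines. Of the extreme levels in single-copy lines, 55.7% were high, so neither state took nearly all of them. The cuts are unequal, since exactly 90% counts as high and exactly 10% does not count as low. This favours high levels where reads are few, here and in the counts below. With at least 20 reads per CpG the high share was 52.5%.

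**Figure D3:**
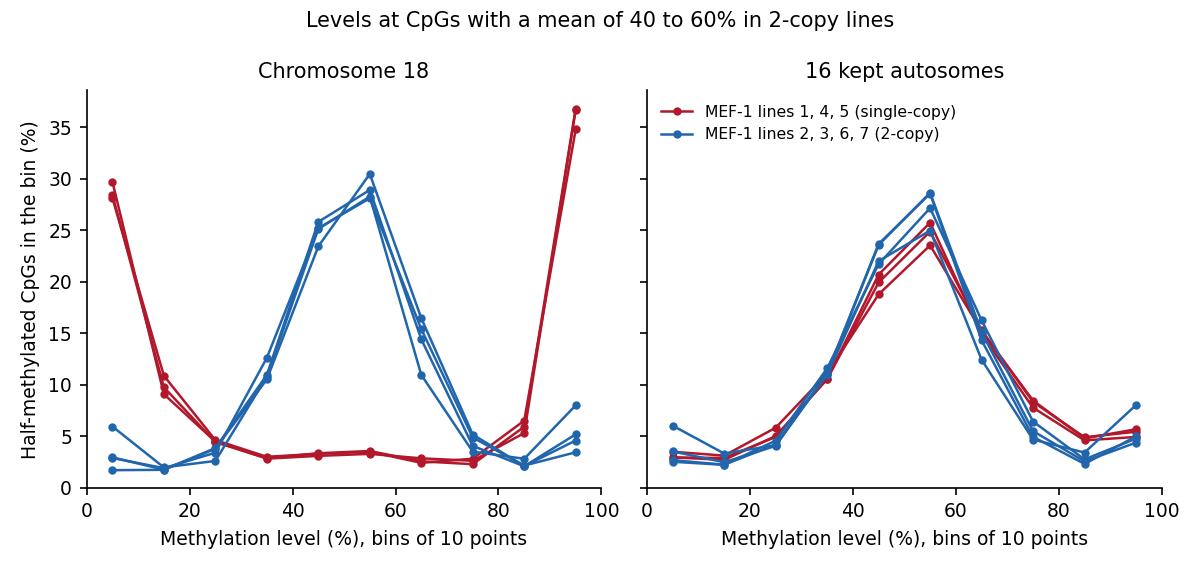
Percentage of half-methylated CpGs (y axis) in each bin of 10 points of methylation level (x axis) for each MEF-1 line, on chromosome 18 (left) and on the 16 kept autosomes (right). On chromosome 18 the single-copy lines have 28.1 to 29.7% of CpGs in the lowest bin and 34.8 to 36.8% in the highest, where the 2-copy lines peak in the middle, and on the kept autosomes the lines of both groups peak in the middle.

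CpGs with a 2-copy mean on either side of the middle were also more often at an end of the scale in single-copy lines. At CpGs with a 2-copy mean of 10 to 40%, the single-copy lines had 51.6% of levels under 10% and 7.39% at 90% or more, against 40.1% and 0.848% in 2-copy lines. On the kept autosomes the corresponding shares were 35.8% and 0.850% in lines 1, 4 and 5, against 40.2% and 0.843%. At CpGs with a 2-copy mean of 60 to 90% they had 56.2% of levels at 90% or more and 7.47% under 10%, against 33.7% and 0.507%. The kept autosomes had 33.3% and 0.550% in lines 1, 4 and 5, against 33.0% and 0.735%. CpGs already at an end differed less, since 89.1% of those under 10% stayed there in single-copy lines against 92.3% in 2-copy lines. At CpGs of 90% or more the shares were 93.1 and 93.7%.

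The 3 single-copy lines were rarely at opposite extremes of the same CpG. Of 2747 CpGs half-methylated over all 4 of the 2-copy lines, 409 (14.9%) were low in all 3 single-copy lines and 718 (26.1%) were high in all 3. A further 747 were low in some of these lines and between 10 and 90% in the rest, and 491 were high in some and between in the rest. Only 13 CpGs (0.473%) were low in one single-copy line and high in another. The remaining 369 (13.4%) were between 10 and 90% in all 3. On the kept autosomes 119575 CpGs met the same condition, of which 0.922% were low and 2.27% high in all of lines 1, 4 and 5 and 85.7% were between in all 3. There 11 CpGs (0.0092%) were low in one of these lines and high in another, a smaller share than on chromosome 18.

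Libraries whose levels were not used in this sorting differed between the sets. At the 409 CpGs low in every single-copy line the MEF-1 parental culture had a mean level of 31.8%, and at the 718 high CpGs it had 71.6%. At the 369 CpGs between in every single-copy line it had 50.1%, and at the 1251 of mixed states 49.6%. The single-copy lines came from this culture, so its levels are not independent of the sorting. Mixing single-copy and 2-copy levels in the proportions given by its coverage would yield 30.7, 70.2, 47.7 and 47.4%, in the same order. The MEF-2 lines, which had both copies and came from another embryo, averaged 42.8% ± 1.07 (SD, n = 7) at the low set and 59.99% ± 1.12 at the high set, with ranges of 41.1 to 44.3% and 58.1 to 61.8% that did not overlap. The order of the sets in MEF-2 was therefore the order in the single-copy lines, at a smaller distance.

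A smaller set stayed at intermediate levels with a single copy. The 369 CpGs between 10 and 90% in all 3 single-copy lines had a mean level of 43.6% there and 50.4% in 2-copy lines. Read discordance was 40.1% in single-copy and 46.0% in 2-copy lines at these CpGs, a description only, since choosing levels between 10 and 90% fixes that reads of both kinds were present. In the same single-copy lines the discordance was 5.09% at the 409 low and 4.29% at the 718 high CpGs, which were likewise chosen by their levels.

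The extremes came in short blocks. Pairs of CpGs that were each at 1 extreme in all single-copy lines were at the same one in 98.0% of 204 pairs at 1 to 50 bp. The share was 84.9% of 284 pairs over 50 to 200 bp and 83.4% of 325 pairs over 200 to 1000 bp. Every pair at a distance was counted, so a dense locus weighs heavily, and Impact alone held 23 of the 409 low CpGs. Over 1000 to 10000 bp the share was 53.3%, and over 100000 to 1000000 bp it was 56.5%. Placing the 1127 extremes at random would give 53.8%, and the shares beyond 1000 bp were close to that. In stretches of 10 Mb with over 100 members the share of extremes that were high ranged from 52.3 to 69.4%, and no such stretch held 1 kind alone.

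At CpGs with a pooled level between 20 and 80% in a pair, the single-copy lines differed from each other more on chromosome 18 than elsewhere. Fewer CpGs were at intermediate levels in these lines on chromosome 18, so the CpGs compared differ in kind and the ratios are a description only. The variance of level differences between pairs of lines 1, 4 and 5 was 6.99 to 8.02 times that of read sampling on chromosome 18, where on the kept autosomes it was 3.06 to 3.35 times. Between pairs of 2-copy lines it was 5.49 to 10.0 times on chromosome 18. Pairs of a single-copy and a 2-copy line reached 12.9 to 15.1 times, against 6.33 to 7.33 times on the kept autosomes.

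CpG by CpG, the planned test did not call any difference after adjustment. A quasi-binomial logistic model of single-copy against 2-copy lines, with Benjamini-Hochberg adjustment over all 1319716 autosomal CpGs, called 0 of the 25230 members (0%) and 0 CpGs elsewhere, and the smallest adjusted p of a member was 0.240. In simulated counts of the same lines this test called 0 of 200 CpGs that had been changed to an extreme, so 0 calls do not speak for equal levels. An unadjusted p under 0.05 was found at 3467 members (13.7%) against 5.04% of CpGs on the other 18 autosomes. Of these, 1863 (7.38%) were higher and 1604 (6.36%) lower in single-copy lines, where the other autosomes had 3.21% and 1.83%.

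A form of the test with the dispersion moderated across CpGs (limma), added after the data had been seen, called 1620 members. That was 6.42% of members against 0.895% of CpGs on the other 18 autosomes, with 917 (3.63% against 0.577%) higher and 703 (2.79% against 0.319%) lower in single-copy lines. The calls covered 1225 of the 2747 half-methylated CpGs (44.6%), and the median size of a called difference was 46.0 points. These CpGs were chosen by levels in the 2-copy lines that the test compares. No such share for other autosomes is given, so 44.6% is a description only. In simulated counts it called 196 of 200 changed CpGs but also 29 unchanged ones, a larger share of the calls than the nominal 5%. The simulated lines were drawn independently with 1 spread setting for every CpG, whereas lines 1, 4 and 5 were close to each other. These simulated shares therefore need not hold for the data. Without line 1, 4 or 5 it called 408, 359 or 393 members (1.62, 1.42 or 1.56%, against 0.289, 0.269 or 0.310% of CpGs on the other autosomes). Without line 6 it called 2600 (10.3% against 2.69%), and without line 2, 3 or 7 it called 1370 to 1502 (5.43 to 5.95% against 0.692 to 0.760%). Fisher's exact test on reads pooled over lines, which leaves out the spread between lines, called 5928 members (23.5%) against 11.8% elsewhere. With the dispersion left free the planned model called 427 (1.69%) against 0.401%.

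Impact, which encodes an inhibitor of the kinase GCN2, was the imprinted gene on the lists of named genes. Its differentially methylated region is known to be methylated on the maternal copy. Of the runs of neighbouring half-methylated CpGs on chromosome 18, that with the most CpGs (26) and one of a pair with 11 lay at this gene, at chr18:12972897-12973381 in an intron and at chr18:12972066-12972403 reaching over a coding exon. They began 974 and 143 bp after the start of the transcript ENSMUST00000025290.6 on the plus strand, at 12971923.

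In the intronic run of 26 CpGs the mean level was 1.43, 1.85 and 1.97% in single-copy lines 1, 4 and 5. It was 48.9, 49.3, 37.3 and 45.1% in 2-copy lines 2, 3, 6 and 7, and in the 7 MEF-2 lines it ranged from 37.9 to 63.5% with a median of 47.2%. The MEF-1 parental culture had 29.9% and the MEF-2 parental culture 46.4%. Every single-copy line was near 0, no line with both copies was, and the MEF-1 parental culture lay between them. Pooled over the run, line 1 had 9 methylated calls of 537 (1.68%, 95% Wilson interval 0.884 to 3.15%). The interval leaves out the spread between lines. It also treats calls as independent, though neighbouring CpGs can share a read, so it may be too narrow even for counting error.

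The 11 CpGs of the exonic run gave 4.30, 1.67 and 1.16% in the single-copy lines and 41.8, 38.03, 46.9 and 42.4% in the 2-copy lines. MEF-2 lines ranged from 39.4 to 53.3% with a median of 47.3%, and the MEF-1 parental culture had 18.3%. At each of the 37 CpGs of both runs the highest single-copy line lay below the lowest 2-copy line. The share of all half-methylated members with such a gap was not computed, so this count is a description only. All 37 had an unadjusted p under 0.05 in the quasi-binomial test, against 67.9% of all half-methylated members. The moderated test was passed by 31, against 44.6%, with adjusted p-values (limma, Benjamini-Hochberg) from 0.00651 to 0.200 over the 37. Both sets were chosen by levels in the 2-copy lines that these tests compare, so the shares and p-values are a description only. With 3 lines against 4, an exact permutation test of one value cannot give a two-sided p below 0.0571. The 3 members upstream of the transcript start, at most 361 bp before it, were at 93.6 to 100% on average in both groups, so the low level began after the start.

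**Figure D4:**
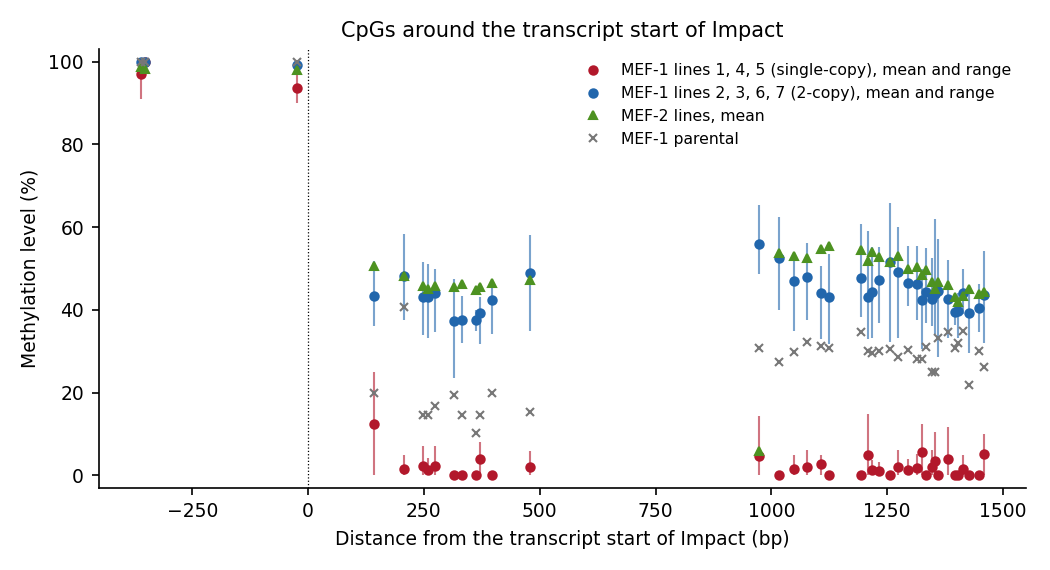
Methylation level (y axis, %) of each member CpG around the transcript start of Impact against its distance from that start (x axis, bp), with circles for the mean and bars for the range of single-copy (n = 3) and 2-copy lines (n = 4), triangles for the mean of MEF-2 lines (n = 7) and crosses for the MEF-1 parental culture. After the start the single-copy means stay at or below 12.5% while the 2-copy means lie between 37.2 and 56.0%.

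One CpG of the region set the families apart. At 974 bp after the start the MEF-2 lines averaged 5.79%, where the 2-copy lines of MEF-1 had 56.0% and the single-copy lines 4.76%. At the other CpGs of both runs the MEF-2 mean was between 42.02 and 55.4%.

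Other half-methylated runs lay at both extremes. A run was 5 or more member CpGs in a row, at most 200 bp apart, each with a 2-copy mean of 30 to 70%, and chromosome 18 had 36 of them. In all 3 single-copy lines 3 runs had a mean under 20% and 7 had a mean of 80% or more, 27.8% of the runs in all. That count of 10 was 3 with at least 20 reads per CpG, 17 with at least 5 and 19 with the protocadherin stretch kept. The kept autosomes had 5 such runs of 1503 (0.333%), and a 2-copy line scored on runs chosen from the other 3 had at most 1. The 20 runs with the most CpGs, with 5 to 26 each, hold 3 low and 4 high ones, and 2 of the low ones are those of Impact.

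Gata6, a zinc finger transcription factor of endoderm and heart development, held 2 of the high runs, in a coding exon, 2588 and 2679 bp from the nearest transcript start. The run of 7 CpGs at chr18:11055058-11055124 had 99.1, 97.5 and 100% in single-copy lines 1, 4 and 5 and 55.2, 43.6, 50.3 and 51.4% in 2-copy lines 2, 3, 6 and 7. The neighbouring run of 10 CpGs, at chr18:11055149-11055228, had 91.0, 81.3 and 91.6% against 32.0, 49.1, 52.3 and 53.8%. Neither pair of groups overlapped, which the definition of a high run nearly fixes. The parental culture was above the 2-copy lines in both runs at 84.1 and 72.8%. MEF-2 lines averaged lower than both groups, with 18.2% ± 6.99 and 20.4% ± 13.2 (SD, n = 7). Another run of 5 CpGs, closer to the start at chr18:11054441-11054491, had 50.0, 31.9 and 24.6% against 21.1, 49.8, 48.6 and 63.3%, and there the groups overlapped.

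Onecut2, a transcription factor of liver and pancreas development, and Camk4, a calcium and calmodulin dependent kinase, held the other high runs among the 20, both in introns. At Onecut2 (chr18:64343211-64343307, 6 CpGs, 3191 bp from the nearest start) the single-copy lines had 97.7, 99.1 and 93.9% and the 2-copy lines 59.0, 38.7, 41.7 and 35.4%. The 8 CpGs at Camk4 (chr18:32940936-32941159) had 91.1, 91.7 and 94.4% against 50.1, 47.7, 55.9 and 65.5%. Groups were apart at both genes, which again nearly follows from the definition of a high run. The MEF-2 means differed, at 21.5% ± 9.25 for Onecut2 and 45.7% ± 4.21 for Camk4 (SD, n = 7).

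The remaining low run was intergenic, 299367 bp from the start of Zfp608, at chr18:55289533-55289697. Its 7 CpGs had 3.14, 6.94 and 6.12% in single-copy lines and 40.7, 33.5, 53.1 and 50.3% in 2-copy lines, where MEF-2 lines averaged 79.3% ± 9.08 (SD, n = 7). Some runs reached an extreme in only part of the single-copy lines. In a coding exon of Zbtb7c, a zinc finger gene, 9 CpGs at chr18:76145877-76145936 had 3.52, 25.5 and 6.09% against 64.8, 45.5, 44.4 and 47.4%. In an intron of Mbp, the gene of myelin basic protein, 7 CpGs at chr18:82489466-82489628 had 16.5, 8.04 and 31.1% against 57.0, 64.7, 46.5 and 55.8%. The Mbp and Zbtb7c groups did not overlap, with line 4 the highest single-copy line at Zbtb7c and line 5 at Mbp.

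In other runs a single copy left the level intermediate. An intergenic run of 8 CpGs 14885 bp from the start of Pou4f3, a transcription factor of sensory hair cells, had 25.8, 27.0 and 27.3% in single-copy lines and 59.1, 49.6, 38.4 and 63.1% in 2-copy lines. Its single-copy lines were close to each other and lay below every 2-copy line without nearing 0. A run of 6 CpGs 32690 bp from the start of Ccdc112 had 62.0, 59.9 and 62.3% against 60.8, 58.0, 66.1 and 57.6%, and one of 6 CpGs in an intron of Synpo, the gene of the actin-binding protein synaptopodin, had 65.1, 46.5 and 50.0% against 45.9, 49.03, 62.1 and 62.3%. The groups overlapped in both.

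**Figure D5:**
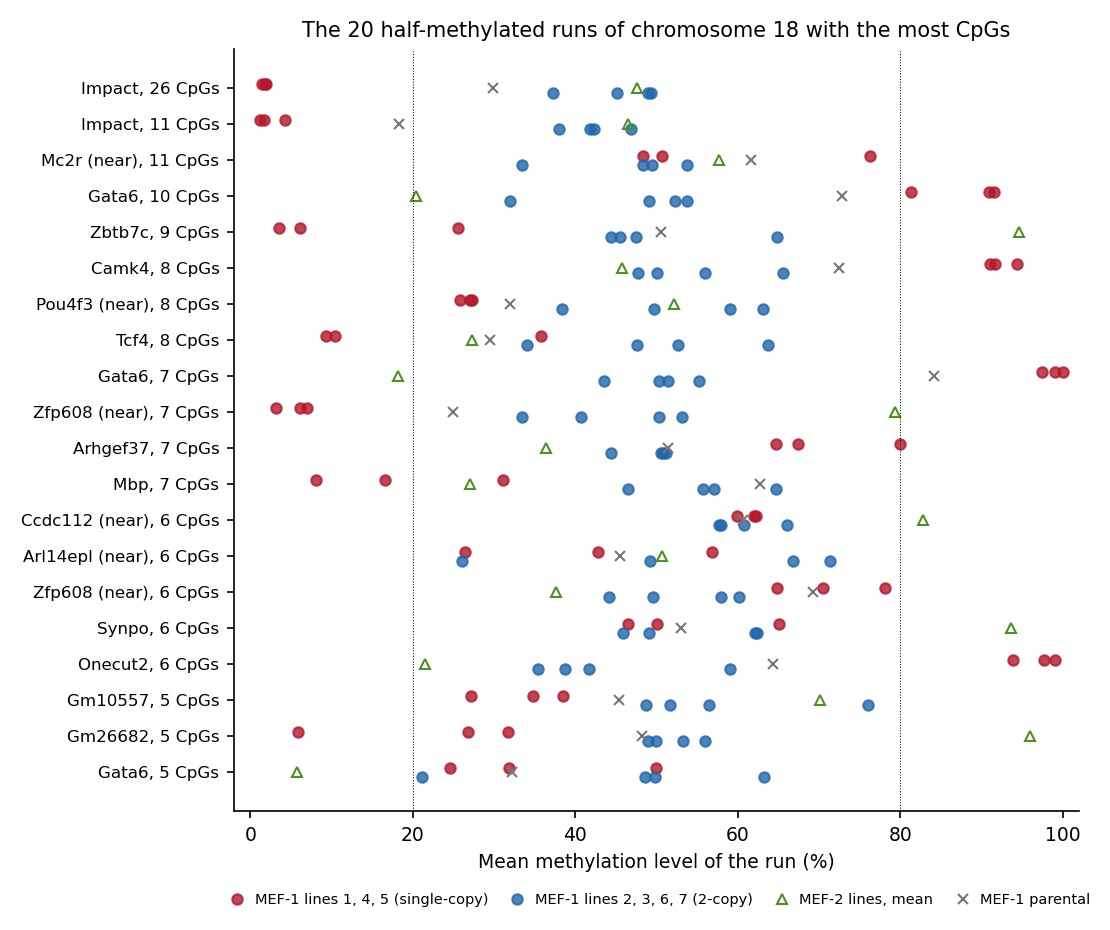
Mean methylation level (x axis, %) of the 20 half-methylated runs of chromosome 18 with the most CpGs, named by the gene they overlap or whose start is nearest, with a point for each MEF-1 line, a triangle for the MEF-2 mean (n = 7) and a cross for the MEF-1 parental culture; dotted lines mark 20 and 80%. Both Impact runs have all single-copy lines at 4.30% or below, and 1 Gata6 run, Camk4 and Onecut2 have all of them at 91.1% or above.

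Runs of called CpGs were to be named as well, and the planned test gave none. With the moderated calls there were 16 runs of 3 or more CpGs in a row that were higher in single-copy lines and 13 that were lower. They held 0.206 and 0.222% of members, against 0.00232 and 0.000929% of CpGs on the other 18 autosomes, and they rest on calls that fell to 359 to 408 without line 1, 4 or 5. The higher run with the most CpGs had 5 in the Onecut2 intron (98.0% ± 0.835 in single-copy and 34.0% ± 8.33 in 2-copy lines), followed by 4 CpGs each in Gata6 and in an intron of Atp8b1, a phospholipid flippase gene (98.1% ± 0.689 and 54.9% ± 7.00). A run of 3 CpGs in a coding exon of Egr1, an immediate early transcription factor, had 97.7% ± 1.67 and 40.4% ± 3.51. One of 3 CpGs in an intron of Pde6a, a rod phosphodiesterase subunit, had 99.2% ± 1.37 and 46.1% ± 8.45. The other higher ones named by the rule were 2 in Arhgef37 and 1 in AC142100.3. All errors here are SD over 3 and 4 lines.

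The 4 lower runs with the most CpGs, 5 to 10 each, were all in Impact. After them came 4 CpGs in Mbp (6.57% ± 4.10 in single-copy and 55.3% ± 8.26 in 2-copy lines) and 3 CpGs each in or nearest by Jakmip2, Sall3 and Pcdh1. At Sall3, a developmental zinc finger gene, the values were 7.64% ± 5.28 and 57.3% ± 7.55 (SD over 3 and 4 lines). MEF-2 lines averaged 91.4% ± 6.98 (SD, n = 7) at that run, outside the range of both MEF-1 groups.

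Most genes of chromosome 18 had a lower discordance in the single-copy lines. Of 359 protein-coding genes with 5 or more member CpGs between their ends, 309 had a lower mean discordance in single-copy than in 2-copy lines. In 200 of them (55.7%) every single-copy line was below every 2-copy line, against 579 of 14308 genes (4.05%) on the kept autosomes. The median gene had 7.47% in single-copy and 11.7% in 2-copy lines, where on the kept autosomes the values were 11.3 and 11.1%. Mean levels were apart in both directions, with 74 genes higher and 68 lower in every single-copy line (20.6 and 18.9%), against 13.3 and 3.24% on the kept autosomes.

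The gene lists of fibroblast, developmental, desmosomal, neural and methyl-binding genes and Impact gave 40 gene bodies and 26 promoters with 5 or more members. Promoters ran from 1000 bp before to 500 bp after the start of the annotated gene, and gene bodies leave that window out. That start can differ from the start of a given transcript, so a body can include a transcript start. For Impact it is at 12955852, before the transcript start at 12971923, and both runs at this gene count as body. Promoters held few half-methylated CpGs, 14 of 327, and 6 of the 327 were called by the moderated test, a smaller share than the 6.42% of all members. The bodies held 304 half-methylated CpGs of 2263, with 57 low and 79 high in all single-copy lines, and 23 of the low ones were in Impact. Over all 2747 half-methylated members 14.9% were low and 26.1% high in all single-copy lines. No list had a CpG that passed the planned test. Body means of the groups were apart in 12 of the 40 genes with single-copy lines higher, apart in 7 with them lower and overlapping in 21. Over all 359 genes of the chromosome 20.6% were higher and 18.9% lower without overlap. The lists were chosen with earlier results of these data known, so shares over their genes and CpGs are a description only.

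Transcription factors of development had 88 of 953 body CpGs called by the moderated test (9.23%, against 6.42% of all members), 63 higher and 25 lower in single-copy lines. Gata6 held 15 of these 88 calls and Onecut2 held 28, so the share rests largely on these genes and is a description only. The body of Gata6 had 47.4% ± 0.905 in single-copy and 34.6% ± 3.00 in 2-copy lines, with 14 CpGs high and 0 low in all single-copy lines. That of Nr3c1, the glucocorticoid receptor gene, had 80.4% ± 1.27 and 66.9% ± 1.89, with 5 high and 0 low, and that of Egr1 had 63.1% ± 1.37 and 54.1% ± 1.97. Levels of these 3 genes, of Onecut2 and of Tshz1 were higher in the single-copy lines without overlap, 5 of the 13 listed genes, while 3 were lower (Sall3, Skor2 and Tcf4) and 5 overlapped. Among all genes of the chromosome, 20.6% were higher and 18.9% lower without overlap. In the opposite direction, Sall3 had 33.0% ± 1.38 and 39.2% ± 0.894, and Skor2, a transcriptional corepressor gene, had 13.3% ± 0.402 and 17.9% ± 1.94. Onecut2 had both kinds, with 15 CpGs high and 5 low among 34 half-methylated ones, and its body mean was 29.7% ± 0.780 against 25.5% ± 1.17.

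Genes of fibroblast matrix and growth factor signalling had 27 of 473 body CpGs called (5.71%, below the 6.42% of all members), 23 higher and 4 lower. Bambi, a decoy receptor of TGF-beta signalling, had the widest gap with 40.8% ± 1.08 in single-copy and 22.4% ± 4.31 in 2-copy lines. Smad7, an inhibitory Smad, had 25.9% ± 1.85 and 21.6% ± 0.683, and Cdh2, the gene of N-cadherin, had 75.6% ± 1.08 and 71.6% ± 0.681, without overlap in these 3 genes. With Zeb1 and Smad4, 5 of the 11 genes were higher without overlap and 6 overlapped, where 20.6% of all genes of the chromosome were higher. The body of Lox, the collagen cross-linking lysyl oxidase, was nearly unmethylated in both groups (1.79% ± 0.382 and 1.55% ± 0.703). Fgf1, a fibroblast growth factor, had overlapping means (59.6% ± 2.51 and 60.6% ± 2.42), while its discordance was 11.5% in single-copy and 20.3% in 2-copy lines. It had 2 CpGs low, 2 high and 5 between in all single-copy lines.

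The desmosome genes, which serve cell adhesion in epithelia, were measured at only 2 of 9, and both had promoter and body values. Dsc2, a desmocollin, was higher in single-copy lines at the promoter (43.8% ± 2.76 against 25.0% ± 5.40) and lower in the body (42.6% ± 3.91 against 60.5% ± 5.91). Neither region overlapped between groups. Over all genes of the chromosome 18.9% were lower without overlap. The promoter of Dsg2, a desmoglein, had 73.2% ± 0.538 against 57.0% ± 8.66, also without overlap, where MEF-2 lines averaged 21.4%. These promoters held 6 CpGs in Dsc2 and 9 in Dsg2. The share of all promoters without overlap was not computed, so both promoter gaps are a description only. In the body of Dsg2 the groups overlapped, at 63.2% ± 0.734 against 61.2% ± 1.79.

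Genes of the nervous system had 45 of 660 body CpGs called, 19 higher and 26 lower, a share of 6.82% that was near the 6.42% of all members. Nrg2, a neuregulin, had close body means of 50.2% ± 1.05 and 50.1% ± 2.31, with a discordance of 10.6% in single-copy and 24.4% in 2-copy lines and 5 CpGs low and 5 high in all single-copy lines. Dcc, the netrin receptor gene, had 43.0% ± 1.37 against 48.2% ± 1.98, and Cbln2, a synapse organiser, had 5.69% ± 1.88 against 11.0% ± 3.40, without overlap. Galr1, a galanin receptor gene, had 11.6% ± 0.874 against 6.64% ± 0.407, also without overlap, and its discordance was not lower, at 10.1 and 9.60%. The body of Mbp was higher without overlap too, at 68.5% ± 1.80 against 66.5% ± 0.519. Of the 10 measured bodies 2 were thus higher, 2 lower and 6 overlapping. Among all genes of the chromosome 20.6% were higher and 18.9% lower. Among the methyl-CpG and CpG binding genes, 2 of 88 body CpGs were called (2.27%, against 6.42% of all members), and all 3 bodies overlapped. The promoters of Mbd1 and Cxxc1 were at or below 2.49% in both groups, and that of Mbd2 was at 78.6% in single-copy and 79.8% in 2-copy lines.

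The sets were alike in CpG density and differed in their share of promoters. All 25230 members lay at a CpG of the GRCm38 reference, the build also named mm10, and were 3.50% of its chromosome 18 CpGs. Half-methylated CpGs had a mean of 3.87 other CpGs within 100 bp, against 5.49 for all members, and the sets low in all, high in all and between in all single-copy lines had 3.78, 3.81 and 3.98. Introns held 41.1, 44.7 and 37.1% of these sets and intergenic sequence 44.0, 41.1 and 50.4%. Promoters, here up to 1000 bp before the start of a protein-coding transcript, held 11.0, 7.66 and 4.61%, against 13.4% of all members. The CpGs are not independent, so these shares are a description only.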

How the data were processed

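According to the study's methods, target regions were captured with RNA probes before bisulfite conversion. The submitters' processing notes name Trim Galore 0.6.0, Bismark, R 3.6.1 and mm10. The deposited values used were counts of unmethylated and methylated reads per CpG from the authors, with no normalization, and removal of PCR duplicates is not mentioned. Levels, read discordance and relative coverage were computed from these counts (Python 3.11.15, numpy 2.4.6, scipy 1.17.1). A CpG needed 10 or more reads in every library. Lines were grouped by coverage, under or over 0.75, because the labels name lines but not copy number. Single CpGs were tested with a quasi-binomial F-test (1 and 5 degrees of freedom, dispersion not below 1) with Benjamini-Hochberg adjustment over all autosomal CpGs and a threshold of 0.05. An added form used limma 3.58.1 in R 4.3.3 to moderate the dispersion. Both were tested on simulated counts of 40000 CpGs, 200 of them changed. Scores over many members were given no test.

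The members and gene lists were chosen with earlier results of these data known. Named were the 20 half-methylated runs with the most CpGs, up to 8 runs of called CpGs in each direction, and listed genes with 5 or more members. Genes came from GENCODE M21 on GRCm38. A table of the whole series, which had no rows for chromosome 18, was not used. No sequence of chromosome 18 is printed. Alternatives changed the read minimum, thinning, windows, test and lines.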

Additional observations from a re-analysis of the deposited data

Results flagged for a closer look

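Of 12 groups of values from the 2-copy or the MEF-2 lines that were screened for a single line far from the rest, 3 had one, and in each it was MEF-2 line 3. Chance alone sets a line apart in about 1 in 20 such groups, and the 3 measures are not independent. Its mean level on chromosome 18 was 47.3%, where the other MEF-2 lines had 48.4 to 49.1%. Its read discordance over all members was 15.97%, against 14.7 to 15.3%. At CpGs half-methylated in MEF-1 2-copy lines its share of levels at 90% or more was 20.4%, against 24.8 to 25.5%. On the 16 kept autosomes it also had the lowest mean level of the MEF-2 lines, 41.4%, and the highest discordance, 14.8%. The relative coverage of chromosome 18 in this line was 0.999, but its highest bin of 2 Mb there was at 1.25, where the highest bin of the other MEF-2 lines was at 1.02 to 1.06.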

How the results depend on the processing

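No result reversed. Leaving out each MEF-1 line in turn gave a discordance difference of -28.5 to -26.7 points, an extreme-share difference of 54.2 to 58.1 points, a share of high extremes of 55.3 to 56.9%, a mean level difference of 0.255 to 0.506 points, 9 to 14 runs at an extreme and 0 calls by the planned test. Other settings moved some values. With at least 20 reads the share of high extremes was 52.5%, the mean level difference 0.0236 points and the runs at an extreme 3, where fewer CpGs could form runs. At least 5 reads gave 17 runs, and keeping the protocadherin stretch gave 19. Thinning every CpG to 10 reads gave an extreme-share difference of 48.1 points and 62.7% high. At 10 reads, 1 methylated read keeps a level from being low, whereas 1 unmethylated read leaves it high, so this setting favours high levels. With half-methylated CpGs chosen in the MEF-2 lines, where MEF-1 levels were free to differ, the discordance difference was -12.9 points, the extreme-share difference 26.3 points and the high share 59.8%. A window of 30 to 70% gave -25.2 points, 51.4 points and 56.8%. Extremes at 20 and 80% gave 67.8 points and 52.1%. The planned test called 0 members, against 427 with the dispersion left free (1.69%, and 0.401% on the other autosomes), 5928 by Fisher's exact test of pooled reads and 1620 with moderated dispersion, which was added once the data had been seen. The cause of the other shifts was not tested. No paired analysis was possible because the lines are separate clones of 1 culture, and their numbers define no pairs.

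Depth limits single CpGs most in the single-copy lines, whose median of 18 to 21 reads leaves a level near 10 or 90% on either side by read sampling. The names single-copy and 2-copy rest on coverage, and which parental chromosome was lost was not tested. The groups hold 3 and 4 clones of 1 embryo.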
